A study of Mus musculus with 4 samples.

Results

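The 4 genes described here encode 7SL RNA (Rn7s1 and Rn7s2) and Y RNA (Rny1 and Rny3) in the mouse. They were chosen by measured values of the peak list itself, as small RNA genes of 2 families with summits in or near them, out of 49599 annotated genes. All peaks with a summit in one of the genes or within 10 kb of it were taken. This gave 3 of the 722 listed peaks, at Rn7s1, Rn7s2 and Rny3. Rny1 had none.

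7SL RNA is the RNA scaffold of the signal recognition particle (SRP), which binds the signal peptide of a nascent secretory or membrane protein and brings the ribosome to the endoplasmic reticulum. The mouse carries near-identical 7SL gene copies, and the B1 repeats spread across rodent genomes descend from 7SL RNA. Y RNAs are small RNAs bound by the Ro60 protein, a ring-shaped RNA-binding protein and autoantigen, and by La, which holds the ends of new RNA polymerase III transcripts. All 4 genes are known to be transcribed by RNA polymerase III.

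The study looked for genomic sites occupied by nuclear GAPDH, a glycolytic enzyme that can also enter the nucleus, in microglia, the immune cells resident in the brain. C57BL/6 mice were injected into the peritoneum with lipopolysaccharide (LPS), an inflammatory component of bacterial walls, on 4 days in a row, and CD11b-positive cells were taken from the cortex with magnetic beads. An antibody labelled AceGAPDH gave 2 ChIP libraries, and input chromatin gave another 2, all from mice given LPS; no untreated group was analysed here. The labels give neither age nor sex and do not say whether the libraries numbered 1 and 2 came from separate animals or from pools.

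A single peak list with its summit list covers the whole series, so each peak has a single value per measure and no value per library. The list name pairs LPS with input and was read here as ChIP against input; the sources used here do not give the libraries behind the call. Each peak has a length, a score whose scale the file does not state, and a height, which is the pileup of fragments at the summit. Both the score and the height were set by the authors and serve here only to describe and rank peaks within this list. Depth is unknown, and the 95% Poisson intervals of heights cover counting error only, on the assumption that a height counts independent fragments. Across all 722 peaks the median length was 161.5 bp, the median score 56.57 and the median height 8. With 1 list there is no replicate check, and no difference was tested. Marker genes of microglia could not be checked, since no expression was measured.

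Both 7SL genes held a peak within the gene itself, and these were among the higher-scoring peaks of the list. A summit lay in or within 10 kb of 3 of the 4 genes, and 1.54% of all annotated genes had one (763 of 49599). A summit lay inside the gene in 2 of the 4, where 0.835% of all genes held one. The 4 genes were picked for their peaks, so nothing follows from these counts or from the ranks of their peaks in the list. Positions are given 1-based on mm10.

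Rn7s1 (RefSeq gene 103948), a 7SL RNA gene of 299 bp, lies on chromosome 12 from 69159295 to 69159593. Its peak ran from 69159294 to 69159367, with the summit at 69159330, and it scored 102.83 at a height of 10 (95% Poisson interval 4.80 to 18.4). By score it ranked 47 of 722.

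Rn7s2 (RefSeq gene 103949), the other 7SL RNA gene, is also 299 bp long and lies on the same chromosome from 69361183 to 69361481. Its peak ran from 69361409 to 69361482, with the summit at 69361445, and it scored 308.62 at a height of 21 (13.0 to 32.1). By score it ranked 10, with 9 peaks above it.

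Both values were higher at Rn7s2 than at Rn7s1. The height was 2.1 times as large, and the Poisson intervals of the heights overlapped. The copies are near-identical, and the sources used here do not give how reads matching both were placed. The split of signal between these genes is therefore uncertain, and each height may hold fragments of the other copy or of further 7SL-like sequences.

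The 2 peaks had the same shape. Each was 74 bp long, covered 73 bp of its gene (24.4%) and reached 1 bp past the gene's end. In each peak the summit lay 36 bp from the lower and 37 bp from the higher end of the peak. The other peaks under 100 bp, a limit chosen after the values were seen, also had a summit near the middle. A central summit was thus not particular to this pair. The pair sat at opposite ends of their genes in genome coordinates. At Rn7s1 the summit lay 35 bp from the lower end of the gene, and at Rn7s2 it lay 36 bp from the higher end. The remaining 226 bp of each gene held no listed signal. The gene table gives no strand, so whether these ends hold the start or the end of the transcript was not determined here.

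**Figure D1:**
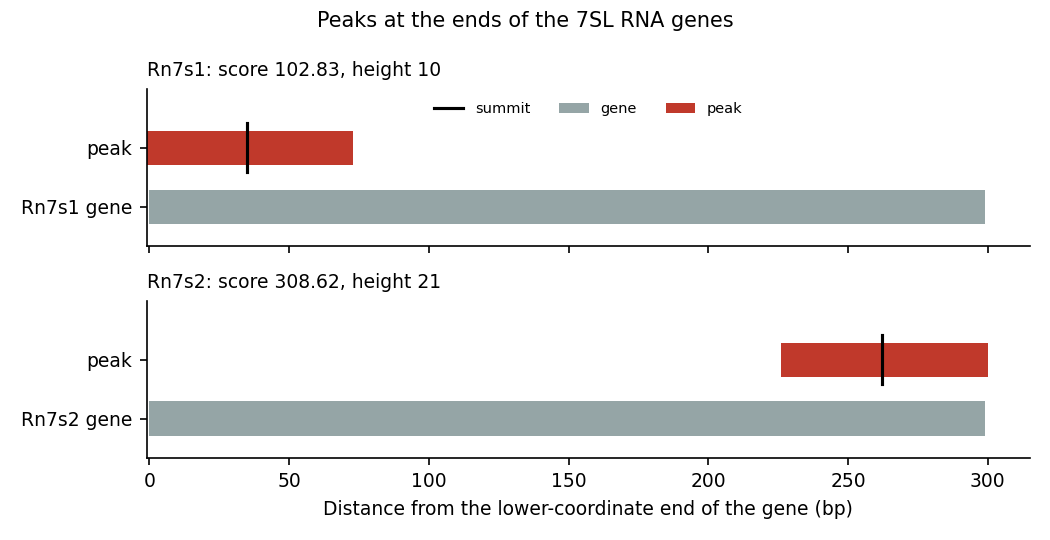
Position of the peak (red), its summit (black line) and the gene (grey) at Rn7s1 and Rn7s2, in bp from the lower-coordinate end of each 299 bp gene. The 74 bp peaks lie at opposite ends, each reaching 1 bp past the gene.

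Peaks this short were rare. Of the 722 peaks, 1 was shorter than 74 bp and no other peak had that length, while the lower quartile of length was 145 bp. The shortest was a 64 bp peak on chromosome 2 (178940973 to 178941036), 453638 bp from the nearest coding gene. It scored 134.95 at a height of 10. Peaks under 100 bp, a limit chosen after the values were seen, numbered 11, and 9 of them scored at least 100, against 48 of the 722 in all (6.65%). Their heights ranged from 10 to 28.

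For its height the Rn7s1 peak also scored high. Among the 44 other peaks of height 10 the median score was 64.315, and 3 scored above Rn7s1. The 44 peaks had a median length of 170 bp. The 3 above Rn7s1 included peaks of 64 bp (score 134.95) and 118 bp (score 108.83), so this was not particular to 7SL. Only 3 other peaks had a height of 21, too few to place Rn7s2. Their scores ranged from 97.47 to 323.2, and 1 of them scored above Rn7s2.

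Within the annotation, the 7SL genes were the only short genes that held a summit. The table lists 5227 genes of at most 300 bp, among them microRNA, small nucleolar, small nuclear and transfer RNA genes. A summit fell inside 2 of them, Rn7s1 and Rn7s2 (0.0383%), and lay inside or within 10 kb of 38 (0.727%). No further gene was added when the limit was raised to 1000 bp, where the same 2 of 12324 genes held a summit (0.0162%). Both length limits were chosen after the values were seen, and a short gene offers little room for a summit. The 2 genes found are those picked for their peaks, so nothing about 7SL genes follows from these counts.

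The 7SL peaks stood alone in their surroundings, as did most peaks of the list. In all, 640 of the 722 peaks (88.6%) had no other summit within 150 kb. The genes lie 201589 bp apart, and no other peak had its summit within 150 kb of either. Beyond the pair, the nearest peak on chromosome 12 lay 4176218 bp from Rn7s2, near Tmem30b (score 59.93, height 7). The summit at Rn7s1 lay 144 bp outside Rps29, which encodes a protein of the small ribosomal subunit. It also lay 6953 bp from the small nuclear RNA gene Gm24499 and 9484 bp from Lrr1, which encodes a leucine-rich repeat protein. The summit at Rn7s2 lay 4244 bp from Nemf, a gene of ribosome quality control, and 8069 bp from the pseudogene Gm18113. By position alone, each 7SL gene held the summit itself, and the coding genes named beside it lay outside. Whether the signal at Rn7s1 belongs to that gene or to Rps29 was not tested.

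Neither Y RNA gene held a summit. Rny3 (RefSeq gene 19874), the Y3 RNA gene of 101 bp, lies on chromosome 6 from 47781624 to 47781724. Its single peak ran from 47772542 to 47773151, with the summit at 47773022, 8602 bp below the gene. The score was 104 (rank 45) and the height 13 (95% Poisson interval 6.92 to 22.2). The peak was 610 bp long, and 13 of the 722 peaks were longer. Its summit lay toward one side, 480 bp from the lower and 129 bp from the higher end. Among the 7 other peaks of height 13, scores ranged from 66.54 to 153.45, and 3 scored above it.

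No other annotated gene lay within 10 kb of that summit. The nearest coding gene was Pdia4, which encodes a protein disulfide isomerase of the endoplasmic reticulum, at 23119 bp. Rny1 (RefSeq gene 19872), the Y1 RNA gene of 111 bp, lies from 47788070 to 47788180, 6345 bp beyond Rny3. The same summit was the one nearest to it, at 15048 bp, outside the 10 kb limit. The next peak below Rny3 was also outside the limit, at 17740 bp (score 54.88, height 12). The peak is thus assigned to Rny3 by nearness alone, and the absence of a listed peak at Rny1 does not show that it lacks signal.

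The Rny3 peak was the last of a cluster. Within 150 kb of Rny3, a distance chosen after the values were seen, lay 8 peaks, 7 on the lower-coordinate side and 1 on the other. The 7 peaks spanned 113281 bp (47659871 to 47773151) and made up 14% of the 50 peaks on chromosome 6. Counting the peak itself, the 7 had 7 or 8 peaks within 150 kb, and no other peak of the list had 5 or more. Across the list, 640 of 722 peaks (88.6%) had no other peak that near.

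All 7 peaks of the cluster were long and of more than median height. Their lengths ranged from 288 to 652 bp, above the upper quartile of the list of 181 bp. Heights ranged from 12 to 21, where 31.4% of all peaks exceeded the median height of 8. The median score was 67.95, between a lowest of 52.02 and a highest of 104, the latter at the peak near Rny3. On the other side of the Y RNA genes, the single peak lay 92340 bp from Rny3 and 522 bp from the zinc finger gene Zfp398. It was 158 bp long with a height of 6 (2.20 to 13.1).

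Some distances within the cluster recurred. From the lowest coordinate upward, the first 2 summits lay 4365 bp apart and the next 2 lay 4341 bp apart. The second pair was offset from the first by 21671 bp for the lower and 21647 bp for the higher summit. The next intervals, 67545, 10404 and 9138 bp, were longer. The cluster began 4829 bp from Rn4.5s, annotated as a ribosomal RNA type gene of 174 bp for 4.5S RNA (47654921 to 47655094). This gene was named after its value was seen. Rodent genes for 4.5S RNA are known to occur in tandem repeats, as background. Of the 7 summits, 3 lay inside predicted coding genes, namely Gm40367, Gm40364 and Gm40363. Their scores were 52.02, 97.47 and 56.35. Another 2 lay nearest to the long non-coding RNA gene Gm52862, at 1786 and 6880 bp. Repeat content and mappability of the interval were not tested.

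**Figure D2:**
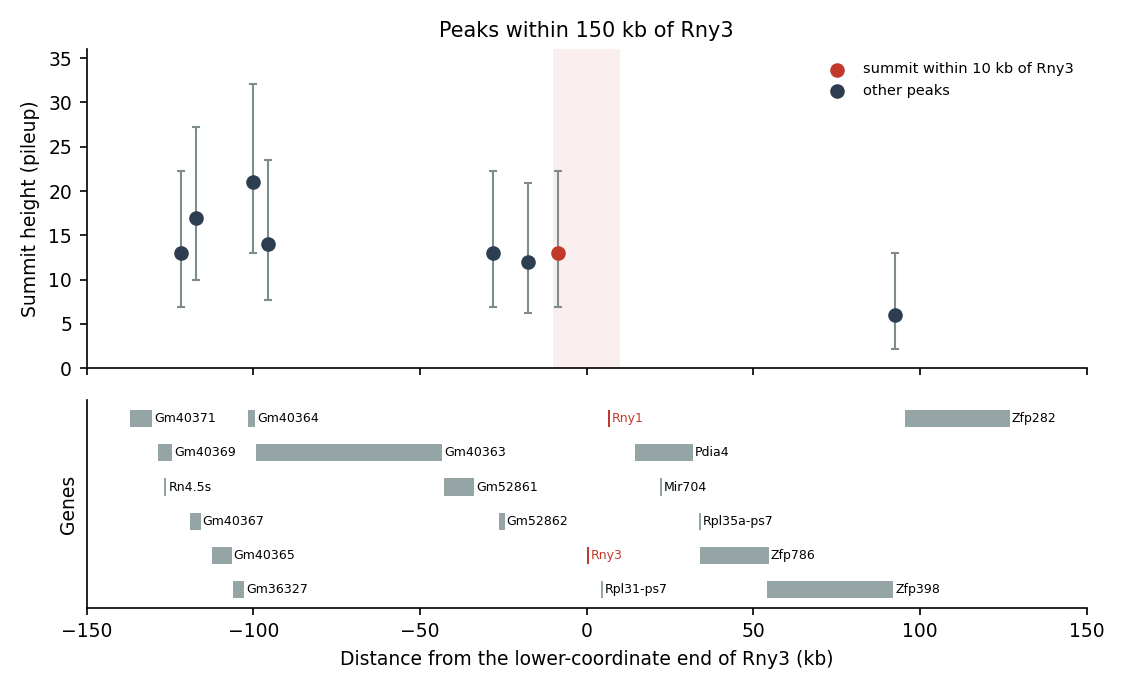
Upper panel, summit height with its 95% Poisson interval for the 8 peaks within 150 kb of Rny3, against distance from the lower-coordinate end of Rny3 in kb; the shaded band is the 10 kb window. Lower panel, annotated genes, with Y RNA genes in red; 7 peaks lie on the lower side at heights from 12 to 21.

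The 7SL and Rny3 peaks each had a high score and differed in form. The genes were picked by values of this list, so the shared high ranks are a description and not a separate result. Of the other peaks in the list, 93.6% scored below Rn7s1, 98.8% below Rn7s2 and 93.9% below Rny3. Heights placed them above 81.7%, 95.4% and 91.8% of the other peaks. Length separated them, with 0.139% of the other peaks shorter than the 7SL peaks and 98.2% shorter than the Rny3 peak.

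**Figure D3:**
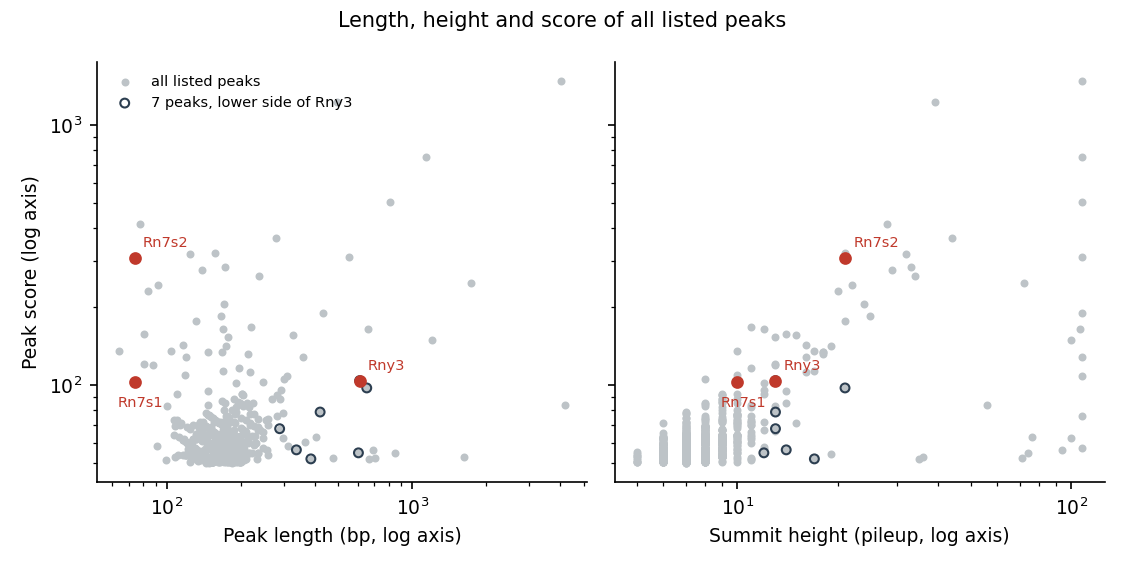
Score against length in bp (left) and against summit height (right) for all 722 peaks, on log axes, with the 3 peaks in red and the 7 peaks on the lower side of Rny3 circled. Rn7s1 and Rn7s2 lie at the short end of the list at 74 bp and Rny3 at 610 bp, each with a score above 100.

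The peaks most like each of these were taken as the 3 with the smallest distance in percentile ranks of length, score and height over the 722 peaks. For Rn7s2 they were 3 peaks of 78 to 92 bp with scores from 230.17 to 414.77, at distances of 1.09 to 1.42 percentile points. None lay within 10 kb of a gene, the nearest gene being the pseudogene Gm3496 at 12641 bp. For Rn7s1 they were the 64 bp peak on chromosome 2, a 118 bp peak on chromosome 9 (score 108.83) and a 110 bp peak on chromosome Y (score 73.21), at larger distances of 2.22, 3.94 and 7.68 points. For Rny3 the nearest was a peak of 293 bp inside E230029C05Rik, a long non-coding RNA gene (score 96.05, height 12). The second was 1 peak of Gapdh, 327 bp long (score 156.41, height 15). The third, in Gm40364 (652 bp, score 97.47, height 21), belongs to the cluster described above. These 3 lay 2.94 to 3.65 points from the Rny3 peak.

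Other genes of these pathways mostly had no peak nearby. Of 78 genes in 4 lists, 2 had a summit inside or no more than 10 kb away (2.56%). This share is near the background of 2.33% of all protein-coding genes and 1.54% of all genes. The median distance to the nearest summit was 813 kb for the listed genes and 1227 kb for all genes. Several listed genes share a nearest summit, and most of them encode proteins, so these medians are not directly comparable.

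Of the 30 entries in a list of small RNA genes, 0 had one. The list was not complete for any RNA class. It held Rn7sk, the RNA that restrains the elongation factor P-TEFb, and Rmrp and Rpph1, the RNAs of the ribonucleases MRP and P. It also held Terc, the telomerase RNA, 5S ribosomal RNA, Bc1 and Vaultrc5. The other 23 entries have symbols that begin with Rnu, and 8 of these are pseudogenes. The nearest of the 30 was the U6 gene Rnu6, at 16976 bp from a summit of score 61.26 and height 7. For Rn7sk the nearest summit lay 184534 bp away. Rprl1, a ribonuclease P RNA-like gene outside the lists and named after its value was seen, had a summit at 2891 bp (score 69.18, height 8), and Rn4.5s, described above, had one at 4829 bp (score 78.75, height 13). Over whole annotated classes, 9 of 997 small nuclear RNA genes (0.903%) had a summit within 10 kb. So did 10 of 1330 small nucleolar (0.752%) and 6 of 403 transfer RNA genes (1.49%). The background was 1.54% of all genes and 0.727% of genes of at most 300 bp. None of these genes held a summit. Of genes of at most 300 bp, 0.0383% did, but these were Rn7s1 and Rn7s2 themselves. That share is thus no separate background, and no contrast is drawn from it.

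Of 10 genes for SRP proteins and the SRP receptor, 1 had a summit. This was Srp54c, a copy of the gene for the SRP subunit that binds signal peptides, with a peak inside the gene on chromosome 12 (55269776 to 55269929, 154 bp). Its score of 56.54 and height of 7 (2.81 to 14.4) lay near the list's medians. Srp54a and Srp54b are related copies on the same chromosome, and reads shared between them cannot be assigned with certainty.

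None of the 8 genes for Y RNA binding proteins had a summit within 10 kb, where 2.33% of all protein-coding genes did. Ro60 came nearest, at 21519 bp from a summit of score 61.83 and height 9. Of 30 genes of the RNA polymerase III machinery, 1 had a summit within the window (3.33%), near that share. It lay 8859 bp from Maf1, which encodes a repressor of RNA polymerase III (score 57.13, height 7).

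**Figure D4:**
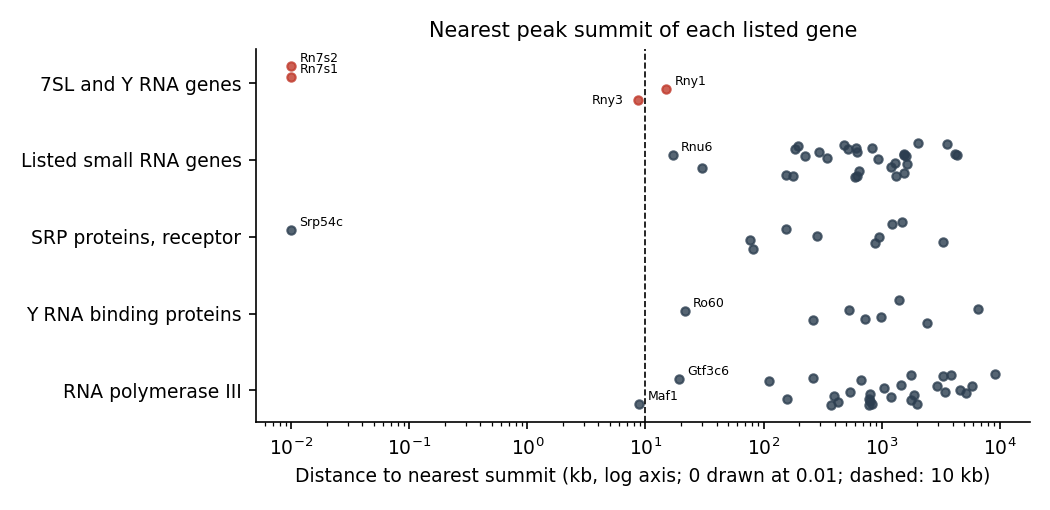
Distance in kb, on a log axis, from each gene to the nearest peak summit, for the 4 7SL and Y RNA genes (red) and the 78 genes of the 4 lists; a summit inside the gene is drawn at 0.01 kb and the dashed line marks 10 kb. Besides Rn7s1, Rn7s2 and Rny3, the genes left of the line are Srp54c and Maf1.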

How the data were processed

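Paired-end reads came from kit-made ChIP-seq libraries, per the labels' protocols. The submitters' processing notes name FastQC, Bowtie2, MACS and mm10, without versions or roles. The authors deposited a peak list with a score per peak and a summit list with a pileup signal, called height here. Depth is unknown, and heights set the precision. No file holds values per library.

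Summits were joined to peaks by name and set against a RefSeq gene table of GRCm38.p6, the assembly of mm10. Of 49939 genes on 21 chromosomes, 340 were dropped because they start below 3 Mb on chromosomes other than Y and appear to carry scaffold coordinates. The distance of a gene is that from its nearest base to the summit. The distance step was checked on simulated summits. Intervals of heights are exact Poisson intervals. A percentile is the percent of other peaks with a lower value.

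The genes and lists were chosen with earlier results of these data known. Named genes are the 4 genes, genes within 10 kb of their summits, the nearest coding gene, the nearest peak beyond the window, listed genes with a summit within 10 kb and the 3 most alike peaks. Others were named after their values were seen. Of the listed names, 1 was matched by its older symbol (Srpr for Srpra). The RefSeq promoter table matched 0 of the 4 genes. Alternatives changed the window, the peak set and the gene set. Software was Python 3.11.15 with scipy 1.17.1, pandas 2.3.3 and numpy 2.4.6, and figures used matplotlib 3.10.9.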

Additional observations from a re-analysis of the deposited data

How the results depend on the processing

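With the window reduced to the gene itself, 1 kb or 5 kb, 2 peaks at 2 genes remained, those of Rn7s1 and Rn7s2. At 50 kb there were 5 peaks and all 4 genes had one; at 20 kb, chosen after the data were seen, there were 4 peaks. When any base of a peak counted, there were still 3 peaks. They also stayed at scores of at least the list median and of at least 100. Their scores of 102.83, 308.62 and 104 exceed both limits, so these score settings are no check. Leaving out peaks of height 20 or more, also added later, removes the Rn7s2 peak by construction. Against peaks of height under 20, the score percentiles became 96.8 (Rn7s1), 100 (Rn7s2) and 97.1 (Rny3). The height percentiles became 85.9, 100 and 96.5, and the length percentile of Rny3 became 99.9. The Rn7s2 peak is higher than this limit, which fixes its height percentile at 100. Leaving out higher peaks can only raise the height percentiles of Rn7s1 and Rny3, so these height changes are no check. The height limit also removed long peaks, since those of at least 600 bp had a median height of 72. It removed higher-scoring peaks as well, so the score and length changes are no independent check. The share of all genes with a summit was 0.927% within 1 kb, 1.21% within 5 kb, 0.819% for peaks at or above the median score and 2.33% for coding genes. Of the 78 listed genes, 1 had a summit within 1 kb, 1 within 5 kb and 6 within 50 kb (windows chosen after the data were seen). By the percentiles on autosomes alone, none of the 9 values moved beyond its binomial interval. Nearly all listed peaks lie on autosomes, so these percentiles could hardly have moved. No paired analysis was possible because the lists carry no replicate numbers. Strand, sequence and repeat content were not analysed here.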
